A study of Homo sapiens with 9 samples.

Results

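Unstimulated BJAB cells carrying the short isoform of TACI were compared with parental BJAB cells, the control. The comparison took the 3 libraries whose titles name stable transfection with the short version of TACI and the 3 libraries of the unmodified line, 6 of the 9 libraries in the series. The other 3 libraries, of BJAB cells given the long isoform (TACI long), entered the estimate of the spread and are used as a comparison where stated. BJAB is an established human B lymphoma line, which the labels assign to Burkitt lymphoma, and every group is labelled untreated. The titles call the cells stably transfected and the design text calls them transduced, and neither names the vector, its promoter or the number of clones. Polyadenylated RNA was taken from sorted cells and sequenced, and reads were counted per gene. A count per gene does not separate the isoforms, so the kind of isoform and the amount of introduced receptor cannot be told apart either. No library is labelled as given an empty vector. Effects of transfection and of making a stable line therefore cannot be told apart from effects of the receptor. The labels do not say whether replicates are separate cultures, so p-values reflect no more than how far these libraries spread, and that spread may be technical.

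TACI is the product of TNFRSF13B, a member of the tumour necrosis factor (TNF) receptor family that B cells carry and that has BAFF and APRIL as its ligands. The short isoform lacks the first of the cysteine-rich domains outside the membrane. Receptors of this family recruit TRAF adaptor proteins, and through them kinases that release NF-kB: the canonical route frees dimers held by IkB proteins, and the non-canonical route, set off when the kinase NIK (MAP3K14) is stabilised, processes the p100 precursor (NFKB2) to a partner of RELB. In B cells NF-kB drives survival genes, surface molecules for contact with T cells, chemokines and its own inhibitors.

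Each library had between 40322136 and 50079203 counts, and 16672 genes had enough counts to be tested. Levels are per-million counts (CPM) after scaling by TMM factors, in the order replicate 1, 2 and 3. The libraries held B cell transcripts throughout: the 8 B cell identity markers summed to between 4119 and 4332 CPM in control and between 3133 and 3459 CPM in TACI short. TACI short replicates 2 and 3 stood apart from replicate 1. They had counts for 32882 and 32209 genes, against 25938 in replicate 1 and 24670 to 25230 in control. The 32 monocyte and macrophage markers summed to 112 CPM in TACI short replicate 1 and to 864 and 842 CPM in replicates 2 and 3, with 106, 197 and 189.5 CPM in control. Of the 19 that were tested 8 rose and 1 fell, and with TACI short replicate 1 as the only TACI short library 0 rose and 1 fell. CSF1R, the macrophage growth factor receptor gene, went from 4, 8.42 and 8.98 to 19.7, 52.8 and 53.5 CPM (adjusted p = 0.00533). With TACI short replicate 1 alone its log2 fold change was 1.46 and it was not called. Of the 32 markers 3 had no count in any of the 6 libraries, C1QB and S100A8 among them. Fibroblast and endothelial markers followed the same order, with 17.1, 39.6 and 38.4 CPM in TACI short and 14.1 to 17.2 CPM in control. Of 5 T and NK cell markers tested 1 rose and 1 fell, and with TACI short replicate 1 alone 0 rose and 3 fell of 6. TRAC, the constant gene of a T cell receptor chain, fell from 51.5, 50.8 and 54.9 to 20.7, 22.6 and 22.6 CPM, and CD4 rose from 0.723, 0.798 and 1.1 to 1.03, 2.04 and 2.17 CPM, not called with TACI short replicate 1 alone (adjusted p = 0.585). Of 3 epithelial markers tested 2 rose and 1 fell, in both sets of libraries. The keratin gene KRT7 rose from 0.339, 0.117 and 0.155 to 0.874, 0.952 and 0.867 CPM and ELF3, an epithelial transcription factor, rose from 0.113, 0.117 and 0.132 to 1.22, 1.47 and 0.961 CPM, while EPCAM, an adhesion molecule, fell from 99.4, 99 and 97.9 to 74.5, 67.5 and 69.2 CPM. Most counts of gene lists below are therefore also given with TACI short replicate 1 alone, where the spread is taken from the other groups. A pair of counts alone in brackets has that meaning throughout. The part of these transcripts in other results was not tested. In bulk RNA, fewer cells of a type and less RNA per cell cannot be told apart.

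**Figure D1:**
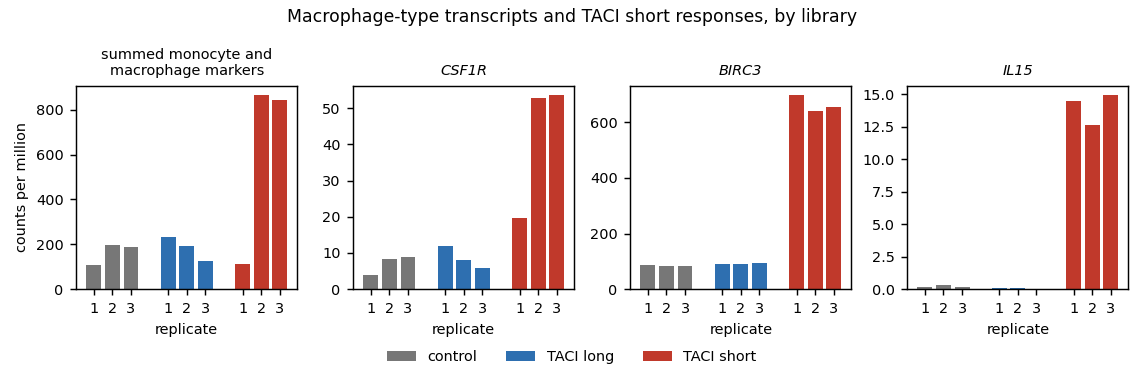
CPM in each of the 9 libraries for the sum of 32 monocyte and macrophage markers, for CSF1R, for BIRC3 and for IL15; each bar is 1 library and colours mark the group. The marker sum reached 864 and 842 CPM in TACI short replicates 2 and 3 but 112 CPM in replicate 1, whereas BIRC3 and IL15 were high in all 3 TACI short libraries.

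Cells with TACI short differed from control in most of the genes measured. Of the 16672 genes, 5256 (31.5%) were higher and 5179 (31.1%) lower at an adjusted p under 0.05 in edgeR's quasi-likelihood test with Benjamini-Hochberg adjustment over all genes tested, the test behind every adjusted p here. In 10840 genes (65%) the 3 TACI short libraries and the 3 control libraries did not overlap. Larger differences were mostly rises: 1968 genes rose and 440 fell by at least 1 on the log2 scale. Among the genes tested, 373 reached the filter's level in the 3 TACI short libraries and in no other group, and these could enter only as rises. With TACI short replicate 1 alone 4766 genes (27%) were higher and 4380 (24.8%) lower of 17628 tested. Of the 1968 larger rises 1445 were called in that fit too, and of the 440 larger falls 350. The median log2 fold change of all genes tested was 0.03, and 0.11 with upper-quartile scaling. A gene list is described below by its counts of genes called higher and lower, to be read against these shares of all genes.

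**Figure D2:**
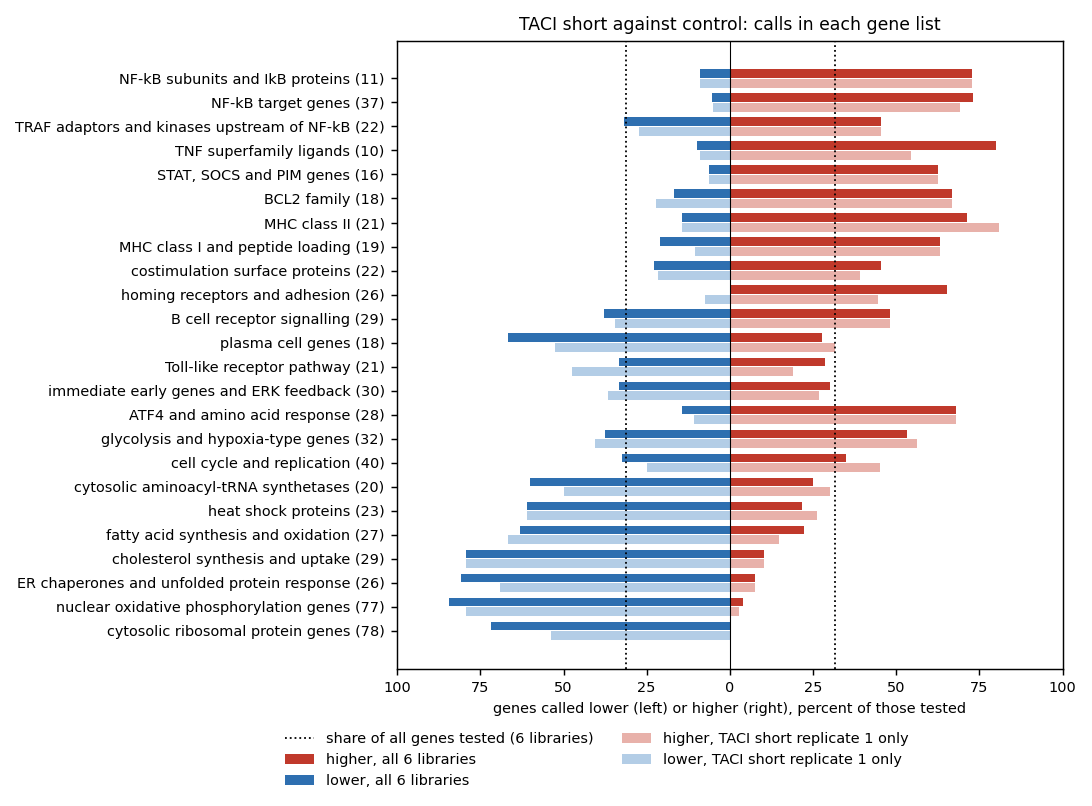
Share of the tested members of 24 gene lists called higher (right) or lower (left) in TACI short against control, in percent, with the number tested in brackets; dark bars use all 6 libraries, pale bars TACI short replicate 1 alone, and dotted lines mark 31.5% and 31.1%, the shares among all genes. NF-kB, TNF ligand and MHC lists lie to the right and lipid, chaperone, respiratory and ribosomal lists to the left in both sets of bars for the most part.

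The introduced receptor gene was high in every TACI short library. TNFRSF13B, on chromosome 17 at 16929816 to 16972118 (hg38, minus strand), had 30, 15.6 and 15 CPM in control and 2878, 2709 and 2505 CPM in TACI short. Every TACI short library lay far above every control library, and control replicate 1 had more than the other controls. The log2 fold change was 7.06 ± 0.30 (SE) (adjusted p = 1.21e-06). The genes of the other receptors for the same ligands did not rise. TNFRSF17, which encodes the BAFF and APRIL receptor BCMA, fell from 4.02, 3.87 and 4.77 to 2.27, 2.52 and 2.6 CPM, with no overlap (adjusted p = 1.65e-06). TNFRSF13C, which encodes the BAFF receptor, went from 62.8, 53.8 and 56.3 to 54.3, 50.3 and 44.9 CPM (adjusted p = 0.0262), with overlapping groups, and was not called with TACI short replicate 1 alone (adjusted p = 0.32). TNFSF13, which encodes APRIL, had 0.814, 0.868 and 0.419 CPM in control and 0.94, 0.748 and 0.735 CPM in TACI short, a difference within the spread (adjusted p = 0.529).

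Genes of the NF-kB system itself rose together. Of the 11 NF-kB subunit and IkB genes 8 rose and 1 fell, with a median log2 fold change of 1.40, and the same counts were found with TACI short replicate 1 alone (median 1.49). Among the 22 TRAF adaptors and kinases upstream of NF-kB 10 rose and 7 fell (median 0.07), and with TACI short replicate 1 alone 10 and 6. The lists of NF-kB subunits, feedback inhibitors and targets together hold 67 genes, and 40 of these rose. RefSeq promoter windows of 300 bases, 250 before to 50 after the gene start (GRCh38.p14), were at hand for 57 of them. They are shown for 6 genes whose transcripts rose, chosen because their windows hold matches to the kappa-B consensus, the sequence class bound by NF-kB dimers. Capitals mark each match on either strand. Each sequence is written 5′ to 3′ on the strand of its gene.
BIRC3: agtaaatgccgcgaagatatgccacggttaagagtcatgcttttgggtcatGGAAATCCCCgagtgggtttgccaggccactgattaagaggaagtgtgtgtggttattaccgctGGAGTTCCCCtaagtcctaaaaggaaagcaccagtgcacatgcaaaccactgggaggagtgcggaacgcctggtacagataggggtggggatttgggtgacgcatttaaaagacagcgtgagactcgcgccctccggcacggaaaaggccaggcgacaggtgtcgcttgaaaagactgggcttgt
BCL3: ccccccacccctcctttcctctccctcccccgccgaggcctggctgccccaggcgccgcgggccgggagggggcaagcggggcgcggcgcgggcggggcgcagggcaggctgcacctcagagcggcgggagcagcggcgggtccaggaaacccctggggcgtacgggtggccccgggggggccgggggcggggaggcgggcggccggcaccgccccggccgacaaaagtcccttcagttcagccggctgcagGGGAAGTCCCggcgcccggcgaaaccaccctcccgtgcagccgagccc
NFKBIA: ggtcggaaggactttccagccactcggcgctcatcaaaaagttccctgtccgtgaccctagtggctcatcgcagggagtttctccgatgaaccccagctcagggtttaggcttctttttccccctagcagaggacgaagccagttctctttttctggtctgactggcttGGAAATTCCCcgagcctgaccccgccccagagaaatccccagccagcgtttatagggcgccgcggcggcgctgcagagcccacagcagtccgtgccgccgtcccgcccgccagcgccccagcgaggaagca
TNFAIP3: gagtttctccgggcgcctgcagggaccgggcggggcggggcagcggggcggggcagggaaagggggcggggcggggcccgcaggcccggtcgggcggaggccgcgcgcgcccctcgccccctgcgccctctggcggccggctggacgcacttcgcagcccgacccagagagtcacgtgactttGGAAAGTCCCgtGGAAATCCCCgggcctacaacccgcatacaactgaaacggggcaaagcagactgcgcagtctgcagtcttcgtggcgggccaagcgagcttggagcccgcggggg
LTB: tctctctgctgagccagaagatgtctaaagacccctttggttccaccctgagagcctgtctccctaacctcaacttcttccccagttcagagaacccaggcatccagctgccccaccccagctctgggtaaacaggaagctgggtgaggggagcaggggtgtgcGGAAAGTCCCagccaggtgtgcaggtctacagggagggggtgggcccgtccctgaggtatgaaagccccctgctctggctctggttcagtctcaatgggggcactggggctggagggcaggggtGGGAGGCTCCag
CCL22: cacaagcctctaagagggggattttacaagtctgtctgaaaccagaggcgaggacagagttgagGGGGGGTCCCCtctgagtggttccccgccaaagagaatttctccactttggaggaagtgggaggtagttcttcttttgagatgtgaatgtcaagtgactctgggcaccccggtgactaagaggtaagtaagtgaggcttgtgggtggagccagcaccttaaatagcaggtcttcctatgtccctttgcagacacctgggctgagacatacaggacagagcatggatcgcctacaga
These windows lie at chr11:102317234-102317533 (plus strand), chr19:44748458-44748757 (plus), chr14:35404700-35404999 (minus), chr6:137867009-137867308 (plus), chr6:31582376-31582675 (minus) and chr16:57358533-57358832 (plus). BIRC3 holds 2 matches, which begin 199 and 135 bases before the gene start, TNFAIP3 holds 2, at 67 and 55 bases before it, and NFKBIA holds 1, at 81 bases before it. LTB has 1 match at 86 bases before the start and 1 after it, BCL3 has 1 match just after its start, and the 2 matches of CCL22 overlap. Of all 35116 promoter windows given by RefSeq, 11.3% hold a match, and of the 10683 windows of tested genes 12.9%. Among the 34 NF-kB list genes that rose and have a window 14 hold one (41.2%), and among the other 23 list genes with a window 4 do (17.4%). The lists were chosen with earlier results of these data known, so these 2 shares are a description and not a test. Genes that rose by at least 1 on the log2 scale held a match in 14.9% of 1164 windows and those that fell by as much in 15.7% of 172 windows. A match is a description of the letters, and binding was not measured.

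BIRC3, which encodes the ubiquitin ligase cIAP2 of the TRAF complexes, had 85.9, 83.4 and 82.9 CPM in control and 697, 641 and 655 CPM in TACI short. All 3 TACI short libraries were high and close to each other, a rise of 7.91-fold with a log2 fold change of 2.98 ± 0.04 (SE) (adjusted p = 1.39e-23). TRAF1, an adaptor that is itself an NF-kB target, went from 10.7, 10.2 and 10.7 to 18.1, 21.9 and 20.5 CPM (1.91-fold higher). TANK, a TRAF-binding scaffold, rose 2.15-fold and TRAF3, which keeps NIK low, rose 1.69-fold. MAP3K14, the gene of NIK, also rose, from 18.1, 17.4 and 18.9 to 34.2, 34 and 31.6 CPM, without overlap of the groups. TRAF5 moved the other way and fell from 27.6, 28.9 and 29.3 to 21.2, 19.8 and 18.6 CPM (adjusted p = 2.44e-08).

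Both branches of NF-kB were represented among the rising subunit genes. NFKB2 went from 78.6, 72.2 and 74.3 to 295, 273 and 261 CPM (3.68-fold) and its partner RELB from 61, 58.7 and 61.3 to 170, 154 and 154 CPM (2.64-fold). NFKB1, which encodes the p105 precursor of the canonical branch, rose less, 1.85-fold, and RELA, its main partner, fell from 111, 105 and 109 to 95.1, 94.8 and 88.4 CPM (adjusted p = 9.67e-05). The groups did not overlap in any of these genes. Several IkB genes rose as well. BCL3, an atypical nuclear IkB, had 3.3, 3.14 and 3.2 CPM in control and 28, 28.4 and 25.9 CPM in TACI short, a log2 fold change of 3.09 ± 0.08 (SE). NFKBIA, which encodes IkB-alpha, the inhibitor that NF-kB induces to end its own activity, went from 15.4, 14.9 and 14.5 to 94.8, 92.7 and 93 CPM, a rise of 6.26-fold (adjusted p = 4.6e-22). NFKBIZ, another nuclear IkB, rose 4.71-fold with more spread between libraries, from 1.85, 1.97 and 1.9 to 9.16, 10.6 and 7.23 CPM. NFKBIE rose 1.4-fold.

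Feedback inhibitors outside the IkB family split, with rises close to the 31.5% share of all genes and falls under the 31.1% share. Of the 14 tested 5 rose and 2 fell (median 0.06), with the same counts for TACI short replicate 1 alone. TNFAIP3, which encodes the ubiquitin-editing enzyme A20, had 2.96, 4.32 and 3.47 CPM in control and 38.5, 40.5 and 40.9 CPM in TACI short. It was low in every control and high in every TACI short library, a rise of 11.2-fold (3.48 ± 0.15 (SE) on the log2 scale, adjusted p = 6.67e-08). TNIP1, an A20-binding protein, rose 2.17-fold and the deubiquitinase gene CYLD 1.45-fold.

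**Figure D3:**
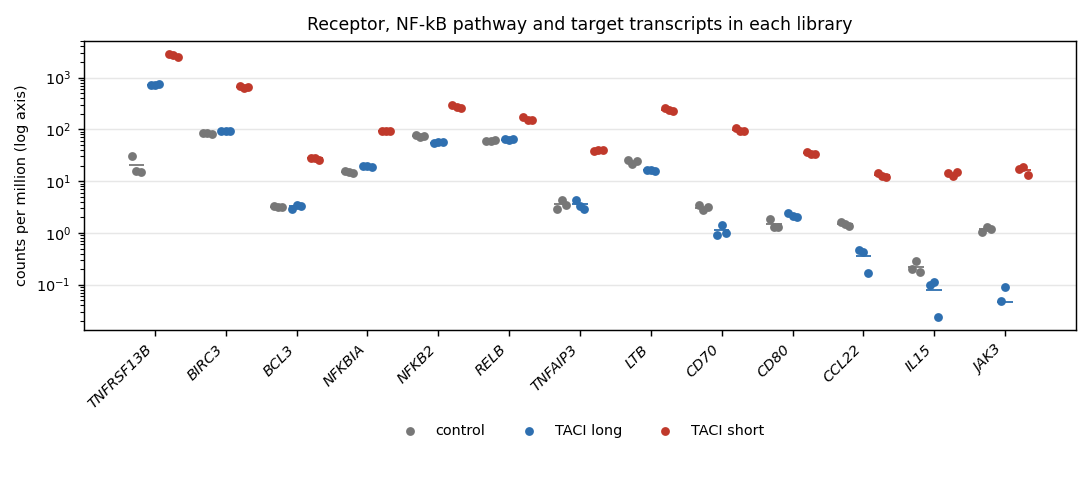
CPM (log axis) of 13 transcripts in each library; points are libraries in the order replicate 1 to 3, short lines are group means, and 1 TACI long library with no JAK3 count is not drawn. Every TACI short library lies above every control library in all 13 genes, and above every TACI long library.

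Targets of NF-kB rose as a group. Of 37 tested 27 rose and 2 fell, with a median of 1.76, and with TACI short replicate 1 alone 27 rose and 2 fell of 39 (median 1.37). The 2 that fell were SLC2A6, a sugar transporter, 1.7-fold lower, and SOD2, a mitochondrial antioxidant enzyme, 1.1-fold lower, which was not called without TACI short replicate 1 (adjusted p = 0.211) or 2 (adjusted p = 0.0673). In a separate list of TNF family ligands, some of which are also among those targets, 8 of 10 rose and 1 fell (6 and 1 of 11 with TACI short replicate 1 alone). CD70, the ligand of CD27 on T and memory B cells, had 3.39, 2.79 and 3.11 CPM in control and 105, 91.4 and 91.8 CPM in TACI short. It was low in every control and high in every TACI short library, with a log2 fold change of 4.95 ± 0.09 (SE) (adjusted p = 1.84e-15). The lymphotoxin genes LTB and LTA, whose products form the membrane-bound complex that organises lymphoid tissue, rose together. LTB went from 25.5, 21.2 and 24 to 262, 232 and 224 CPM (10.2-fold) and LTA from 12.9, 10.7 and 10.7 to 47, 45.7 and 46 CPM (4.04-fold). TNFSF9, which encodes 4-1BB ligand, rose 2.67-fold. TNFSF11, which encodes RANK ligand, was the ligand that fell, from 7.48, 6.99 and 6.73 to 1.84, 1.68 and 1.73 CPM, or 4.04-fold lower (adjusted p = 2.06e-13), and its groups did not overlap.

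Genes of surface molecules that B cells use in contact with T cells moved in both directions. Of 22 activation and costimulation genes 10 rose and 5 fell, against 9 and 5 of 23 with TACI short replicate 1 alone. CD80, the costimulatory ligand of CD28, had 1.9, 1.29 and 1.28 CPM in control and 37.1, 34.2 and 33.5 CPM in TACI short, a log2 fold change of 4.55 ± 0.11 (SE) (adjusted p = 5.02e-16). The controls were all under 2 CPM and the TACI short libraries lay within a few CPM of each other. CD40, the receptor for T cell help, went from 32.1, 30.5 and 29.8 to 105, 97.3 and 98.2 CPM (3.26-fold). CD58, the ligand of CD2, rose 4.31-fold, and ICAM1, the ligand of the integrin LFA-1, rose from 8.77, 9.6 and 10.5 to 64.3, 82.5 and 81 CPM, somewhat less in replicate 1. CD5, an inhibitory co-receptor, rose 18.3-fold from a low level. Genes of 3 SLAM family receptors fell. SLAMF7 went from 111, 109 and 109 to 47.5, 47.7 and 53.1 CPM (2.22-fold), LY9 fell 2.62-fold and SLAMF1 1.6-fold. The early activation marker CD69 fell from 39.8, 39.6 and 39.2 to 30.7, 29.4 and 32.7 CPM.

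Of 36 cytokine and chemokine genes 23 had enough counts to be tested, of which 9 rose and 3 fell (11 and 3 of 26 with TACI short replicate 1 alone, and 19 higher without that replicate). IL15, a growth factor of lymphocytes, had 0.203, 0.282 and 0.177 CPM in control and 14.5, 12.6 and 14.9 CPM in TACI short. All controls were low, with 29 counts in all against 2011 in TACI short, a ratio of 64.1 (95% exact interval 44.5 to 96.0, counting error only). IL10, which restrains inflammation, went from 12.7, 11.9 and 11.6 to 52.8, 51.2 and 51.7 CPM (4.3-fold). CCL22, a chemokine for CCR4-bearing T cells, rose from 1.63, 1.48 and 1.39 to 14.4, 12.6 and 12.2 CPM, IL23A from 1.15, 1.29 and 1.17 to 3.82, 3.92 and 3.96 CPM and EBI3, a subunit of the heterodimeric cytokines IL-27 and IL-35, from 0.52, 1.1 and 0.861 to 4.92, 6.07 and 5.73 CPM. IL18 rose 1.73-fold. CXCL11, an interferon-induced chemokine, fell from 2.51, 2.86 and 2.47 to 0.677, 0.476 and 0.735 CPM and TGFB1 fell 1.19-fold. IL1B, a cytokine of macrophages, had 19.8, 42.8 and 41.1 CPM in control and 20.6, 199 and 191 CPM in TACI short (adjusted p = 0.0777), high only in the libraries with high macrophage markers. CCL22, IL23A, EBI3, IL18 and IL1B, like STAT4, BANK1, ATF3, ADM, CCND1 and TNFSF13, were chosen after their values were seen.

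Of 8 tested genes of the receptors for IL-15 and related cytokines 4 rose and 0 fell, and with TACI short replicate 1 alone 4 rose of 9, with different members. IL2RG, the common gamma chain itself, went from 0.136, 0.188 and 0.287 to 0.24, 0.997 and 0.565 CPM (adjusted p = 0.00472) and was not called with TACI short replicate 1 alone (adjusted p = 0.79) or without TACI short replicate 2 (adjusted p = 0.0841). JAK1, a kinase of the same receptors, was called with TACI short replicate 1 alone (adjusted p = 0.00522) but not with all libraries (adjusted p = 0.0742). JAK3, the kinase of the common gamma chain, had 1.02, 1.29 and 1.21 CPM in control and 17, 18.4 and 13 CPM in TACI short. The groups did not overlap and the rise was 13.7-fold (3.78 ± 0.22 (SE) on the log2 scale, adjusted p = 1.4e-07). IL15RA, which presents IL-15 at the cell surface, rose from 28 counts in all control libraries to 101 in TACI short, a ratio of 3.33 (95% exact interval 2.17 to 5.26). Of 16 STAT, SOCS and PIM genes 10 rose and 1 fell, in both sets of libraries. SOCS1, a feedback inhibitor of JAK kinases, went from 9.36, 8.17 and 9.16 to 24.7, 20.9 and 21.5 CPM (2.51-fold). The survival kinase gene PIM1 rose 2.12-fold and STAT5A, the main signal transducer of IL-2 and IL-15, 1.84-fold. STAT4 rose from 0.0904, 0.0939 and 0.11 to 1.11, 1.18 and 1.39 CPM (adjusted p = 5.21e-08).

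Homing receptors and adhesion genes rose in 17 of 26 cases and fell in 0, but with TACI short replicate 1 alone in 12 of 27, with 2 lower. The chemokine receptor genes named here were called in both. CCR7, which guides lymphocytes to T cell zones, had 3.3, 3.24 and 3.27 CPM in control and 28.6, 25.7 and 28.2 CPM in TACI short, a rise of 8.41-fold (adjusted p = 9.54e-16). CXCR5, the receptor for follicles, rose from 4.54, 3.94 and 4.17 to 10.4, 10.3 and 10 CPM and CXCR4, for bone marrow and the germinal centre dark zone, rose from 30.5, 26 and 29 to 80.4, 72.4 and 76.7 CPM. The tetraspanin gene CD9 rose 3.58-fold. All 3 TACI short libraries exceeded all 3 controls in each.

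Several survival genes rose, and genes that promote apoptosis moved in both directions. In the BCL2 family 12 of 18 rose and 3 fell (12 and 4 with TACI short replicate 1 alone). BCL2 had 4.41, 3.92 and 3.29 CPM in control and 12, 13.3 and 12.9 CPM in TACI short, 3.29-fold higher (adjusted p = 4.07e-12), with no overlap. BCL2A1, an NF-kB-induced survival factor, went from 13.5, 13.3 and 11.2 to 32.8, 32.8 and 35.7 CPM (2.67-fold) and BCL2L1 rose 1.51-fold. The BH3-only genes BBC3 and PMAIP1, which promote apoptosis, rose as well. BBC3 went from 5.45, 5.49 and 6.22 to 18, 15.1 and 16.3 CPM (2.87-fold) and PMAIP1 from 34.5, 34.8 and 36.4 to 60.4, 55.9 and 58.3 CPM (1.65-fold). BIK, a BH3-only gene too, fell from 50.3, 48.7 and 48.2 to 27.5, 24.9 and 25.2 CPM, and the effectors BAX and BAK1 fell 1.26-fold and 1.37-fold. Of 21 death receptor and caspase genes 7 rose and 6 fell (7 and 4 with TACI short replicate 1 alone). With all libraries the death receptor and caspase counts are close to the shares of all genes, 31.5% higher and 31.1% lower. CFLAR, which encodes the caspase-8 inhibitor FLIP, rose 2.38-fold, FAS 1.49-fold and CASP1 2.56-fold.

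Genes of B cell identity moved in both directions, and several B cell surface genes fell. Of the 8 B cell identity markers, all in the wider list below, 2 rose and 4 fell. Their median log2 fold change was -0.23, and less negative at -0.14 with TACI short replicate 1 alone. In the list of B cell identity and of the germinal centre, 16 of 32 genes rose and 8 fell (18 and 7 with TACI short replicate 1 alone), with a median of 0.11. MS4A1, which encodes CD20, had 723, 709 and 693 CPM in control and 325, 295 and 316 CPM in TACI short, a fall of 2.27-fold (adjusted p = 2.02e-16). Both groups were tight and far apart. CD22 fell 1.4-fold and CD79A 1.42-fold, whereas the germinal centre regulators LMO2 and BCL6 rose 1.76-fold and 1.22-fold.

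Immunoglobulin genes rose in 8 of 10 cases and fell in 2 (9 and 1 of 11 with TACI short replicate 1 alone). IGHM, the heavy chain of IgM, had 3646, 3376 and 3521 CPM in control and 6850, 6284 and 6290 CPM in TACI short, a rise of 1.84-fold. IGHD, the heavy chain of IgD spliced from the same locus, moved against it, from 145, 136 and 145 to 37.2, 34.8 and 37.6 CPM (3.89-fold lower, adjusted p = 6.46e-20). Nextera XT libraries do not keep the strand, so counts within the locus are uncertain in their division. Some other genes of this list are also near-identical in parts. Plasma cell genes fell in 12 of 18 cases and rose in 5 (10 and 6 of 19 with TACI short replicate 1 alone). PRDM1, the regulator of plasma cell fate, rose from 4.95, 5.02 and 4.26 to 10.4, 10.3 and 10.3 CPM, but XBP1 fell 1.33-fold, the IgM-folding factor MZB1 fell 1.51-fold and JCHAIN, the joining chain of secreted IgM, fell from 527, 495 and 481 to 296, 253 and 307 CPM.

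Signalling genes of the B cell receptor moved in both directions. Of 29 tested 14 rose and 11 fell, and with TACI short replicate 1 alone 14 and 10. The Src-family kinase gene FYN rose from 95.9, 87.2 and 91.8 to 192, 177 and 177 CPM, while LYN, the main such kinase of B cells, fell from 149, 149 and 148 to 92.2, 91.1 and 96.4 CPM. The groups were separate in both. PIK3CD, the B cell phosphoinositide kinase, rose from 100, 94.5 and 98.1 to 236, 225 and 214 CPM (2.3-fold) and the transcription factor NFATC2 rose 1.97-fold. BTK fell 1.35-fold and the phosphatase gene PTPN6 1.21-fold. BANK1, a scaffold between LYN and calcium channels, rose from 0.384, 0.305 and 0.309 to 2.01, 2.4 and 2.45 CPM.

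**Figure D4:**
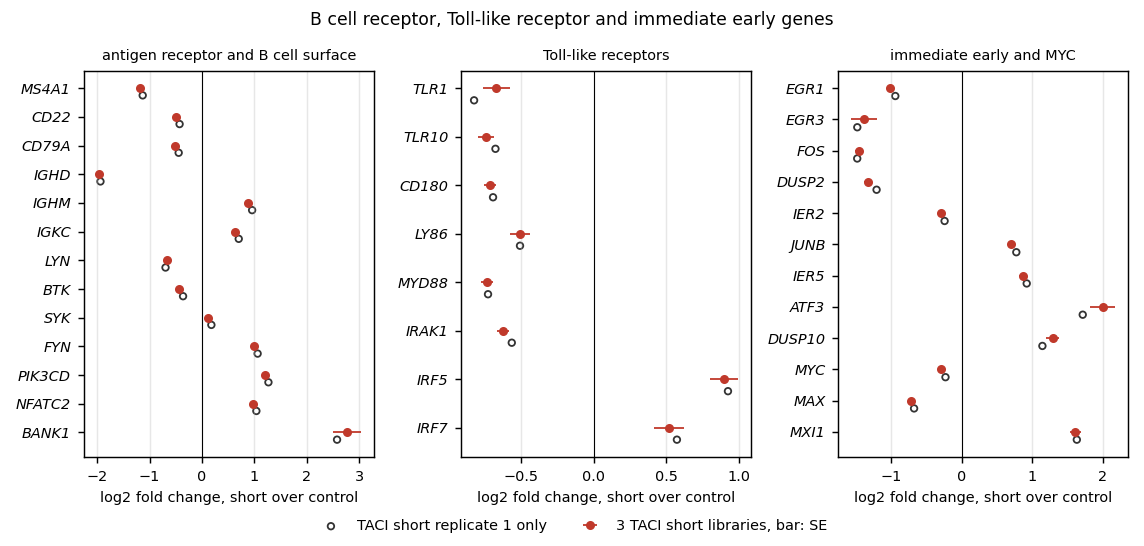
Log2 fold change of TACI short over control for 33 genes of antigen receptor, Toll-like receptor and immediate early groups; filled points with bars are the estimate and standard error from all libraries, and open points the estimate with TACI short replicate 1 alone. MS4A1, IGHD, EGR1 and FOS lie left of 0 and FYN, PIK3CD, IRF5, JUNB and MXI1 right of it in both.

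Genes of the Toll-like receptor pathway moved in both directions, with all libraries at close to the shares of all genes (31.5% higher and 31.1% lower). Of 21 tested 6 rose and 7 fell, and 4 and 10 with TACI short replicate 1 alone. CD180, a receptor that tunes the response to lipopolysaccharide, had 326, 320 and 311 CPM in control and 198, 189 and 198 CPM in TACI short, a fall of 1.64-fold (adjusted p = 3.77e-13). TLR10 fell from 42.8, 43.4 and 40.5 to 26.5, 22.4 and 26.8 CPM, and the shared adaptor MYD88 from 91.2, 89.2 and 88.5 to 54.4, 52.7 and 54.9 CPM. The kinase gene IRAK1 fell 1.54-fold. In each of these the groups did not overlap. IRF5, a transcription factor downstream, rose 1.86-fold.

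Immediate early genes, which respond within minutes to ERK and calcium signals, moved in both directions: 9 of 30 rose and 10 fell (8 and 11 with TACI short replicate 1 alone, and 15 higher without that replicate). With all libraries these counts are close to the shares of all genes, 31.5% higher and 31.1% lower. EGR1 had 843, 860 and 890 CPM in control and 450, 426 and 406 CPM in TACI short, 2.02-fold lower (adjusted p = 1.16e-13). FOS fell from 36, 34.4 and 37.2 to 12.9, 13.6 and 12.7 CPM and the ERK phosphatase DUSP2 from 243, 230 and 244 to 103, 86.1 and 94.3 CPM. Controls were above TACI short in every library of these genes. JUNB rose from 134, 131 and 132 to 227, 209 and 207 CPM, DUSP10 from 5.31, 5.7 and 5.72 to 12.4, 14.4 and 14.1 CPM and ATF3 from 1.33, 2.14 and 1.55 to 5.51, 7.14 and 7.44 CPM. In the MYC and MAX network 3 of 11 rose and 6 fell in both sets of libraries. MYC itself fell 1.23-fold (adjusted p = 3.61e-06) and its partner MAX 1.65-fold, while MXI1, which competes for MAX, rose from 6.92, 5.87 and 6.31 to 19.8, 19.4 and 19.2 CPM (3.06-fold).

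Antigen presentation genes rose in both classes: 15 of 21 in class II with 3 lower (17 and 3 with TACI short replicate 1 alone), and 12 of 19 in class I with 4 lower (12 and 2). HLA genes share reads, so single HLA genes are uncertain and are not named. CIITA, the master regulator of class II genes, went from 42.9, 40.6 and 43.2 to 76.4, 70.7 and 63 CPM (1.66-fold) and CD74, the invariant chain, from 2511, 2283 and 2330 to 3742, 3428 and 3449 CPM (1.49-fold). B2M, the light chain of class I molecules, was 1.48-fold higher and TAP1, a transporter of peptides, 1.76-fold higher, but NLRC5, the regulator of class I genes, fell from 34.5, 31.8 and 33.2 to 26.9, 26.9 and 26.9 CPM (adjusted p = 1.73e-05). PDIA3, of the peptide-loading complex, fell 1.8-fold.

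Interferon-stimulated genes split: 20 of 38 rose and 6 fell, against 13 and 10 with TACI short replicate 1 alone. With all libraries the rises exceeded the 31.5% share of all genes, and the median log2 fold change was 0.38. That median was only 0.09 with TACI short replicate 1 alone, so the rise of the list rests largely on replicates 2 and 3. OAS3, an antiviral enzyme, rose from 15.7, 15.2 and 16.2 to 36.7, 40.4 and 38 CPM, and PARP14 from 89, 93.7 and 92.2 to 196, 189 and 180 CPM. The RNA sensor gene IFIH1 rose 1.94-fold. ISG15, an interferon-induced ubiquitin-like protein, fell from 56.3, 49.1 and 53.9 to 39.6, 37 and 37.2 CPM (adjusted p = 2.04e-08) and IFIT1 fell from 1.92, 1.83 and 1.79 to 0.546, 0.929 and 1.15 CPM.

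Lipid synthesis genes were lower. Of 29 genes of cholesterol synthesis and uptake 23 fell and 3 rose, in both sets of libraries, with a median of -0.48. DHCR7, a reductase late in cholesterol synthesis, had 240, 230 and 240 CPM in control and 132, 126 and 127 CPM in TACI short, a fall of 1.84-fold (adjusted p = 1.18e-14). Every TACI short library was below every control library. ABCG1, which exports cholesterol, was among the rising members, from 0.678, 0.915 and 0.574 to 2.03, 1.97 and 2.09 CPM. Of 27 fatty acid genes 17 fell and 6 rose (18 and 4 with TACI short replicate 1 alone). FASN, fatty acid synthase, went from 1625, 1646 and 1699 to 842, 808 and 760 CPM (2.06-fold lower), and no control library came near a TACI short library. The desaturase genes FADS1 and SCD fell 5.46-fold and 1.68-fold. SREBF1, which regulates these enzymes, fell 1.4-fold.

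Chaperone genes fell in the endoplasmic reticulum (ER) and in the cytosol. In the ER list 21 of 26 fell and 2 rose (18 and 2 with TACI short replicate 1 alone), with a median of -0.53. HSPA5, the main ER chaperone BiP, had 1091, 1082 and 1119 CPM in control and 481, 450 and 492 CPM in TACI short, a fall of 2.31-fold. ERN1, which encodes the stress sensor IRE1, rose from 7.42, 8.28 and 8.37 to 14.9, 15.1 and 14.8 CPM. Of 23 heat shock proteins 14 fell and 5 rose (14 and 6). HSP90AB1 went from 3220, 3095 and 3178 to 1904, 1757 and 1889 CPM (1.71-fold lower) and the mitochondrial chaperone HSPA9 fell 1.58-fold. Among the members that rose, DNAJB4 went from 5.36, 5.19 and 5.43 to 13.9, 12.2 and 13.7 CPM, and HSPA1B, whose counts cannot be separated from its near-identical copy, from 34.5, 33.3 and 35.3 to 78.2, 74.8 and 68.2 CPM.

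Genes of the respiratory chain fell in both genomes. Of 77 nuclear genes 65 fell and 3 rose, with a median of -0.27, and with TACI short replicate 1 alone 61 fell and 2 rose. ATP5MC1, a subunit of the ATP synthase ring, had 244, 224 and 222 CPM in control and 144, 124 and 143 CPM in TACI short, 1.67-fold lower (adjusted p = 1.5e-10). CYCS, cytochrome c, fell from 582, 547 and 556 to 376, 336 and 370 CPM and the complex I gene NDUFB9 fell 1.53-fold. Of 13 mitochondrially encoded genes 11 fell and 0 rose (8 and 0). Ribosomal protein genes shifted little but in 1 direction: 56 of 78 fell and 0 rose (42 and 0), with a median of -0.16. That count depends on the scaling, since 35 fell with upper-quartile factors, and many of these genes have pseudogene copies that share reads. Of 20 cytosolic aminoacyl-tRNA synthetases 12 fell and 5 rose (10 and 6), with RARS 1.83-fold lower and DARS 1.46-fold higher.

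**Figure D5:**
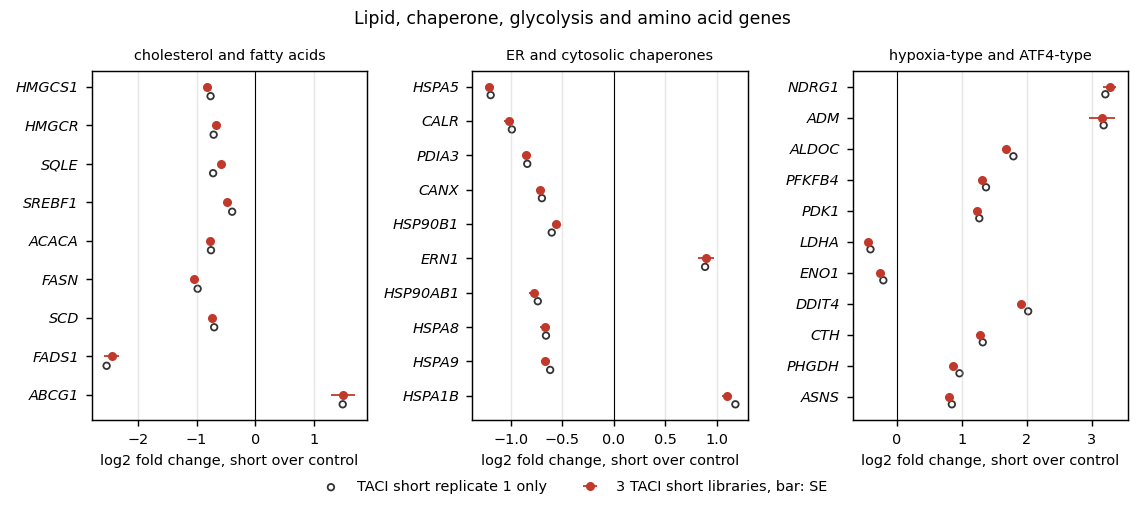
Log2 fold change of TACI short over control for 30 metabolic and chaperone genes; filled points with bars are the estimate and standard error from all libraries, and open points the estimate with TACI short replicate 1 alone. FASN, HSPA5 and HSP90AB1 lie left of 0, and NDRG1, ALDOC, DDIT4 and PHGDH right of it.

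Genes of glycolysis and of the hypoxia type rose in 17 of 32 cases and fell in 12 (18 and 13). NDRG1, which is induced when oxygen is short, had 3.3, 3.64 and 4.06 CPM in control and 34.1, 36.5 and 36.2 CPM in TACI short, a rise of 9.69-fold (adjusted p = 1.28e-15). PFKFB4, which sets the rate of glycolysis, rose from 16.7, 17.5 and 17.2 to 44.5, 41.3 and 41.4 CPM, ALDOC, an aldolase isoform, from 39.5, 33.8 and 34.9 to 126, 111 and 111 CPM, and PDK1, which keeps pyruvate out of mitochondria, from 27.8, 26 and 25.3 to 63.7, 59.4 and 62.2 CPM. ADM, encoding adrenomedullin, rose from 1.31, 2.09 and 1.59 to 15.2, 14.7 and 14.7 CPM. LDHA, lactate dehydrogenase, fell from 2106, 2010 and 2015 to 1545, 1409 and 1551 CPM and ENO1, an enolase, fell from 4834, 4456 and 4610 to 4019, 3638 and 3904 CPM. The groups did not overlap in these genes.

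The amino acid response rose in 19 of 28 genes and fell in 4 (19 and 3). DDIT4, an inhibitor of mTORC1, had 36.7, 37.8 and 37.6 CPM in control and 152, 136 and 133 CPM in TACI short, 3.76-fold higher (adjusted p = 3.38e-19). The synthesis enzymes followed, with CTH for cysteine from 16, 15 and 16.7 to 39.9, 38.6 and 37.4 CPM, GPT2 for alanine from 41.8, 40.1 and 42.3 to 95.7, 90.5 and 86.6 CPM and PHGDH for serine from 181, 169 and 174 to 341, 304 and 312 CPM. Antioxidant genes split into 8 higher and 9 lower of 27 (9 and 7), with NFE2L2, the transcription factor NRF2, rising from 47, 45.8 and 44.5 to 81.3, 82.8 and 83.8 CPM. Cell cycle genes split too, 14 higher and 13 lower of 40, or 18 and 10 with TACI short replicate 1 alone and 25 and 12 with upper-quartile factors. With all libraries and TMM factors, both the antioxidant and the cell cycle split are close to the shares of all genes, 31.5% and 31.1%. CDKN1B, the inhibitor p27, rose from 28.2, 28.5 and 27.5 to 55.3, 51.4 and 53.4 CPM. CCND1, cyclin D1, rose from 7.12, 8.05 and 8.19 to 27.1, 40.1 and 36.2 CPM. CDK4, the kinase partner of cyclin D1, fell from 136, 124 and 126 to 83.7, 74.6 and 80.8 CPM and PCNA, the replication clamp, from 570, 549 and 544 to 453, 403 and 443 CPM.

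Outside the lists, the greatest rises included genes hardly present in control. Rises and falls here were picked by the size of their change among called genes with separate groups. Their size, separation and adjusted p therefore follow in part from that choice and are a description. NRIP1, a nuclear receptor corepressor, had 0.565, 0.399 and 0.817 CPM in control and 30.5, 30.2 and 30.4 CPM in TACI short, a rise of 50.6-fold (adjusted p = 1.54e-15). LIMCH1, an actin-linked protein, went from 0.181, 0.188 and 0.155 to 8.41, 9.04 and 7.87 CPM, and the glycosyltransferase B3GNT6 from 0.723, 0.375 and 0.353 to 63, 58.5 and 52.8 CPM. The 3 TACI short libraries lay close together in each, replicate 1 included. Among the falls HTR3A, a serotonin receptor subunit, went from 13.2, 10 and 12.8 to 2.49, 2.74 and 3.11 CPM (adjusted p = 2.14e-13) and WDR35, a gene of cilia, from 4.91, 5.75 and 5.23 to 0.896, 1.4 and 1.39 CPM. MPEG1, a pore-forming protein, fell from 114, 114 and 113 to 17.8, 17.5 and 20 CPM.

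Whether these changes differ from those in cells with the long isoform was tested directly between TACI short and TACI long. Control libraries enter this contrast only through the filter, the TMM scaling and the estimate of the spread. Of the 16672 genes 5870 (35.2%) were higher and 5604 (33.6%) lower in TACI short than in TACI long, and TNFRSF13B itself was 3.68-fold higher. With TACI short replicate 1 alone 5394 (30.6%) were higher and 5068 (28.7%) lower of 17628. Of the NF-kB subunit and IkB genes 9 of 11 were higher and 1 lower (9 and 0), and of the NF-kB targets 26 and 4 of 37 (28 and 5 of 39). CD70 had 0.931, 1.43 and 1.01 CPM in TACI long, a difference of 6.40 on the log2 scale (adjusted p = 2.44e-16). JAK3 had 0.049, 0.0896 and 0 CPM there (8.34, adjusted p = 6.39e-09) and CCR7 0.245, 0.515 and 0.264 CPM (6.30, adjusted p = 5.47e-19). JAK3 lay near the floor in TACI long, so the size of its difference is uncertain. BIRC3 and TNFAIP3 had 92.2, 91.5 and 92.3 CPM and 4.39, 3.38 and 2.96 CPM in TACI long. Between TACI long and control TNFAIP3 was not called, and BIRC3 was higher in TACI long by 0.13 on the log2 scale. ER chaperones were lower in TACI short in 22 of 26 cases and higher in 2 (22 and 2), HSPA5 with 1842, 1801 and 1860 CPM in TACI long. Immediate early genes were higher in TACI short than in TACI long in 23 of 30 cases and lower in 0 (20 and 1). EGR1 had 39.7, 33.8 and 35.5 CPM in TACI long, under both other groups. Cholesterol genes were higher in TACI short in 25 of 29 cases and lower in 2 (23 and 1). HMGCS1, an early enzyme of the pathway, had 893, 925 and 920 CPM in control and 540, 495 and 520 CPM in TACI short and 130, 129 and 131 CPM in TACI long. SLAMF1, MS4A1 and LYN had no difference past the threshold between the isoforms (adjusted p = 0.401, adjusted p = 0.236 and adjusted p = 0.0579). Amount and kind of receptor differ together in this contrast, and their parts in it cannot be told apart.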

How the data were processed

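The authors deposited 1 table of raw counts per gene for each library, with 57500 genes. The submitters' processing notes name FastQC, STAR 2.4.0h, HTSeq and the hg38 build, and the labels' protocols give Nextera XT libraries, which do not keep the strand, so overlapping and antisense genes cannot be told apart. Of the gene identifiers 56898 were named from GENCODE 29.

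Low genes were removed with filterByExpr (minimum count 10). TMM scaled the libraries, and 1 model with a mean for each group covered all 9 of them (edgeR 4.0.16, R 4.3.3, robust quasi-likelihood test with 6 residual degrees of freedom). P-values were adjusted by Benjamini-Hochberg over all genes tested. The procedure was also run on simulated data in which few genes changed and replicates differed only at random. That setting differs from these libraries, so the run cannot show how well scaling or error control worked here. Alternatives were DESeq2 1.42.0, limma 3.58.1 (voom), other scaling factors and filters, fits of fewer groups, the replicate number as a block and leaving out libraries. No pair of libraries agreed within sampling noise. Deviations from the group means in same-numbered TACI short and control libraries had correlations of 0.434, 0.213 and 0.177. TACI short replicate 2 correlated at 0.232 with control replicate 3, and TACI short replicate 3 at 0.194 with control replicate 2. Both exceeded the same-numbered values of these TACI short libraries. Only pairs of a replicate 1 with a replicate 2 or 3 had negative correlations.

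The members and gene lists were chosen with earlier results of these data known. Named genes were TNFRSF13B, BIRC3, IL15 and BCL3, the 10 greatest rises and falls (protein-coding, called also with TACI short replicate 1 alone, groups apart, average log2 CPM 1 or more), marked list members, and in each list the 3 members with the smallest adjusted p in either direction. Exceptions are named in the text, and some members of the lists are counted but not reported here by name. Promoter windows came from RefSeq (GRCh38.p14), and intervals cover counting error only.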

Additional observations from a re-analysis of the deposited data

Results flagged for a closer look

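In 5 of the leading genes the estimated change from control had opposite signs in TACI short and TACI long. The difference between the isoforms passed edgeR's quasi-likelihood test with Benjamini-Hochberg adjustment in each. The changes from control in TACI long are given as estimates, without a test. IL15 was higher in TACI short than in TACI long by 7.43 on the log2 scale (adjusted p = 4.41e-18), with 5.98 over control in TACI short and -1.45 in TACI long. It had only 29 counts in all control libraries, so the estimate for TACI long starts near the floor. The gap junction gene GJA3 differed by -6.50 (adjusted p = 1.91e-23), with -3.19 from control in TACI short and 3.31 in TACI long. The differences were -3.41 for SHROOM4 (adjusted p = 4.71e-15), -2.70 for VIPR2, a receptor of vasoactive intestinal peptide (adjusted p = 7.58e-16), and -2.67 for LRRC14B (adjusted p = 9.44e-14). In that order, the changes from control were -2.87, -2.02 and -1.97 in TACI short. In TACI long they were smaller, 0.53, 0.69 and 0.70. Both contrasts with control share the same 3 control libraries.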

How the results depend on the processing

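Leaving out 1 TACI short or control library in turn gave 4720 to 6022 genes higher, 4770 to 5566 lower, and 10913 to 12661 different from TACI long, whose own libraries were not left out. Asking for at least 1 on the log2 scale left 1968 higher and 440 lower. Upper-quartile factors gave 6320 higher and 4330 lower, and the replicate block 5277 and 5224. Over the same omissions the log2 fold change was 6.87 to 7.45 for TNFRSF13B, 2.94 to 3.02 for BIRC3, 5.82 to 6.16 for IL15 and 3.05 to 3.14 for BCL3. The genes named in the text that lost their call in any of the 15 alternatives were CSF1R, CD4, IL2RG, SOD2 and TNFRSF13C, and the replicate block changed no call among them. JAK1 gained one in 5. IL1B reversed to -0.75 without TACI short replicates 2 and 3 and passed the threshold in DESeq2 and without TACI short replicate 1. TNFSF13, never called, ranged from -0.077 to 0.37 when 1 library was left out, reversing without control replicate 3. The cause was not tested. Depth limits the genes with few counts, such as IL15RA.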
